A study of Caenorhabditis elegans with 2 samples.

Results

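The genes described here are 8 cyclin-dependent kinase genes of the nematode Caenorhabditis elegans (cdk-1, cdk-2, cdk-4, cdk-5, cdk-7, cdk-8, cdk-9 and cdk-12), the kinase inhibitor gene cki-1 and pcn-1, the gene for the replication clamp PCNA. They are 10 of 19973 nuclear protein-coding genes, and they were chosen by earlier results on these same peak lists, so their peaks are a description and carry no test. Binding of FLT-1 was mapped by chromatin immunoprecipitation and sequencing (ChIP-seq) in 1 group of 2 biological replicates. The animals were mid-embryos of strain RW12255, synchronised by egg bleaching and labelled with an age of 1 hour, and whole organisms were used. The strain carries the allele st12255, in which the flt-1 gene at its own place in the genome, now named baz-2, is fused to TY1, EGFP and 3xFLAG tags. Chromatin was sheared by sonication and an anti-GFP antibody pulled down the tagged FLT-1. Both replicates share strain, allele, stage and antibody, and no group without the tag was analysed here.

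FLT-1 is the worm member of the BAZ2 family, large chromatin proteins with a bromodomain and a PHD finger that work with ISWI remodelling enzymes in other animals. Cyclin-dependent kinases are active when bound to a cyclin. One set drives the division cycle: CDK-4 with cyclin D in G1, CDK-2 with cyclin E at entry into S phase and CDK-1 with A and B cyclins at mitosis. Another set acts on RNA polymerase II and its partners: CDK-7 in TFIIH, CDK-8 in the Mediator kinase module, CDK-9 in the elongation factor P-TEFb and CDK-12 with cyclin K. CDK-7 also phosphorylates other cyclin-dependent kinases to activate them. CKI-1 is a Cip/Kip inhibitor that holds worm blast cells in G1, and PCN-1 encircles DNA and tethers polymerases during replication. Peaks measured on whole embryos mix dividing and differentiating cells. Binding in few cells and weak binding in many cells cannot be told apart in such samples, and the lists give no expression with which to check stage or cell type.

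A peak was assigned to a gene when its summit lay between 2000 bp upstream of the annotated start and the gene end. The conservative list over both replicates holds 2633 peaks that the authors kept at an irreproducible discovery rate (IDR) of 0.01 or less. IDR estimates the share of peaks at or above a given rank that would not recur in a repeat, and a low value marks a peak ranked high in both inputs. Each peak has a signal, the value the authors' peak caller gave it over pooled replicates, on a scale not given in the sources used here. A ranked list of 96357 peaks, most of them below that threshold, also gives the signal of each replicate. Ranks count from 1 for the highest signal within a list. Distances are from the gene start, negative upstream.

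In the conservative list 6 of the 10 genes had a peak: cdk-1, cdk-4, cdk-7, cdk-9, cki-1 and pcn-1. The same count over all protein-coding genes was 2467 of 19973, or 12.4%. Those 6 genes held 9 peaks, and 7 of the 9 summits were upstream of the start. The share of upstream summits over all conservative peaks was not computed. cdk-2, cdk-5, cdk-8 and cdk-12 had no conservative peak. In the narrower span from 1000 bp upstream to 200 bp downstream of the start the same 6 genes had a peak, beside 6.82% of all protein-coding genes.

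The underlying DNA is shown for 5 of the 9 peaks, because these are the summits at the inhibitor and the clamp and the upstream summits at cdk-4 and cdk-1, the cell cycle kinases with a conservative peak. Each sequence is 151 bases centred on the summit, printed along the gene's own strand from RefSeq WBcel235, the same assembly as ce11. They span chrII:7810846-7810996 on the plus strand (cki-1 upstream), chrII:7811279-7811429 on the plus strand (cki-1 coding exon), chrIV:4049590-4049740 on the minus strand (pcn-1), chrX:13519183-13519333 on the minus strand (cdk-4) and chrIII:9747291-9747441 on the plus strand (cdk-1). Capitals mark exact matches on either strand to the CHR element TTTGAA or to the E2F variant TTCGCGC, both known as sites for regulators of cell cycle genes.
cki-1 upstream peak: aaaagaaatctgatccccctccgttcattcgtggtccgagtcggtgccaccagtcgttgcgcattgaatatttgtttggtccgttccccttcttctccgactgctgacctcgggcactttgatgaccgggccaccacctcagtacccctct
cki-1 coding exon peak: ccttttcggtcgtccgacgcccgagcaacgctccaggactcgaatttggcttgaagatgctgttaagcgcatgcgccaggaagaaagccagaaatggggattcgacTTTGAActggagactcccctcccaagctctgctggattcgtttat
pcn-1 upstream peak: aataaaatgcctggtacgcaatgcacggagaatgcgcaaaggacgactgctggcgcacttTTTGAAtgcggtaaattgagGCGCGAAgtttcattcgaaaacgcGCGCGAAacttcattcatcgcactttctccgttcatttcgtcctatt
cdk-4 upstream peak: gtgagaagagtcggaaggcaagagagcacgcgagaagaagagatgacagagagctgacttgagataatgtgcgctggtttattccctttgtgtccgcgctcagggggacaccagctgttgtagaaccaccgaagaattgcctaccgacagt
cdk-1 upstream peak: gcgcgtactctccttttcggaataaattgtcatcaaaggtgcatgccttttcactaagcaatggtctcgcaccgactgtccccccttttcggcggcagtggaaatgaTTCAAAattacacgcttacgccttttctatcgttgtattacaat

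The bases around cki-1 show 2 different settings. Both printed stretches had a GC content above 50%, at 55.0% for the upstream summit and 53.6% for the other, and the second was coding sequence over all 151 bases. The pcn-1 stretch holds 1 CHR match and 2 matches to the E2F variant within 151 bases. The variant was searched after these bases had been seen, so its matches here are a description alone. The cdk-4 stretch and the upstream cki-1 stretch hold neither motif.

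cki-1 and pcn-1, the inhibitor and the clamp, both had peaks in the conservative list. cki-1 (WBGene00000516, chromosome II, 7811240 to 7812105, plus strand) had peaks on either side of its start. The stronger one (7811206 to 7811501) had its summit 114 bp inside the gene, in a coding exon, with a pooled signal of 102.8 and rank 1176. Its signal was 71.2 in replicate 1 and 45.1 in replicate 2, a mean of 58.2 ± 18.4 (SD, n = 2), at an IDR of 0.000635. The weaker one (7810773 to 7811068) lay at -319 bp with a pooled signal of 72.7 and rank 2233. Its signals were 46.1 in replicate 1 and 48.4 in replicate 2, or 47.3 ± 1.61 (SD, n = 2), at an IDR of 0.00162. Thus the weaker peak had the closer pair of signals, and replicate 2 alone was nearly equal at both. Replicate 1 ran higher over the nuclear conservative peaks, with a median log2 ratio to replicate 2 of 0.44 (quartiles 0.15 and 0.72). The ratio of the stronger peak, 0.66, was inside those quartiles, and that of the weaker peak, -0.07, was below them. No other protein-coding gene's window held either summit, so cki-1 does not share them with a neighbour.

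pcn-1 (WBGene00003955, chromosome IV, 4047937 to 4049448, minus strand) had 1 conservative peak (4049517 to 4049812) at -217 bp. Its pooled signal of 128 ranked 791, with 79.5 in replicate 1 and 40.5 in replicate 2, or 60.01 ± 27.5 (SD, n = 2), at an IDR of 0.000752. The pcn-1 summit also lay in no other gene's window. Below the threshold, pcn-1 had 6 further ranked peaks with signals of 7.28 to 34.8, and cki-1 had 4 with signals of 3.59 to 44.95. The upstream pcn-1 peak therefore stood well clear of every other ranked peak in its window.

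Of the cell cycle kinases, cdk-4 and cdk-1 had conservative peaks and cdk-2 had none. cdk-4 (WBGene00000406, chromosome X, 13515856 to 13518911, minus strand) had 1 peak (13519110 to 13519405) at -347 bp with a pooled signal of 125 and rank 829. Its signal was 82.4 in replicate 1 and 35.9 in replicate 2, or 59.1 ± 32.9 (SD, n = 2), at an IDR of 0.0011. The replicates were far apart: the log2 ratio of replicate 1 to replicate 2 was 1.199, and 96.5% of the 2611 nuclear conservative peaks had a lower ratio. The divergent gene F18H3.1 starts 405 bp from this summit on the other side, so the peak lies between both starts.

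cdk-1 (WBGene00000405, chromosome III, 9747472 to 9748852, plus strand) had 2 conservative peaks, both weak for that list. The first (9747218 to 9747513) was at -106 bp, with a pooled signal of 77.2, rank 2042 and an IDR of 0.00629. Replicate 1 gave it 36.6 and replicate 2 gave it 47.1, or 41.9 ± 7.37 (SD, n = 2). Here replicate 2 was the higher one, which set this peak apart from most: the log2 ratio of -0.36 was above that of 2.57% of nuclear conservative peaks. The translation factor gene iff-1 starts 173 bp away on the opposite strand. The second peak (9748260 to 9748555) lay at +936 bp in a coding exon, with a pooled signal of 74.0, rank 2180 and an IDR of 0.00742. Its replicate signals were 37.3 and 37.5, or 37.4 ± 0.158 (SD, n = 2). Its nearest annotated start was that of the next gene, T05G5.4, 526 bp downstream, and not that of cdk-1. Only 22.6% and 17.3% of nuclear conservative peaks were weaker than the first and the second cdk-1 peak.

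cdk-2 (WBGene00019362, chromosome I, 3410013 to 3416368, plus strand) had 13 ranked peaks and none past the threshold. The strongest, at +3185 bp in a coding exon, had a pooled signal of 44.3 and rank 15305. It had 28.3 in replicate 1 and 11.8 in replicate 2, or 20.1 ± 11.7 (SD, n = 2). That summit was 186 bp downstream of the start of the shorter annotated transcript of cdk-2. At the gene's own start the strongest peak, at -130 bp, had a pooled signal of 41.8, with 27.0 in replicate 1 and 11.0 in replicate 2. The 13 signals ran from 6.90 to 44.3 with a median of 25.0, so cdk-2 showed no peak that stood clear of the others.

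**Figure D1:**
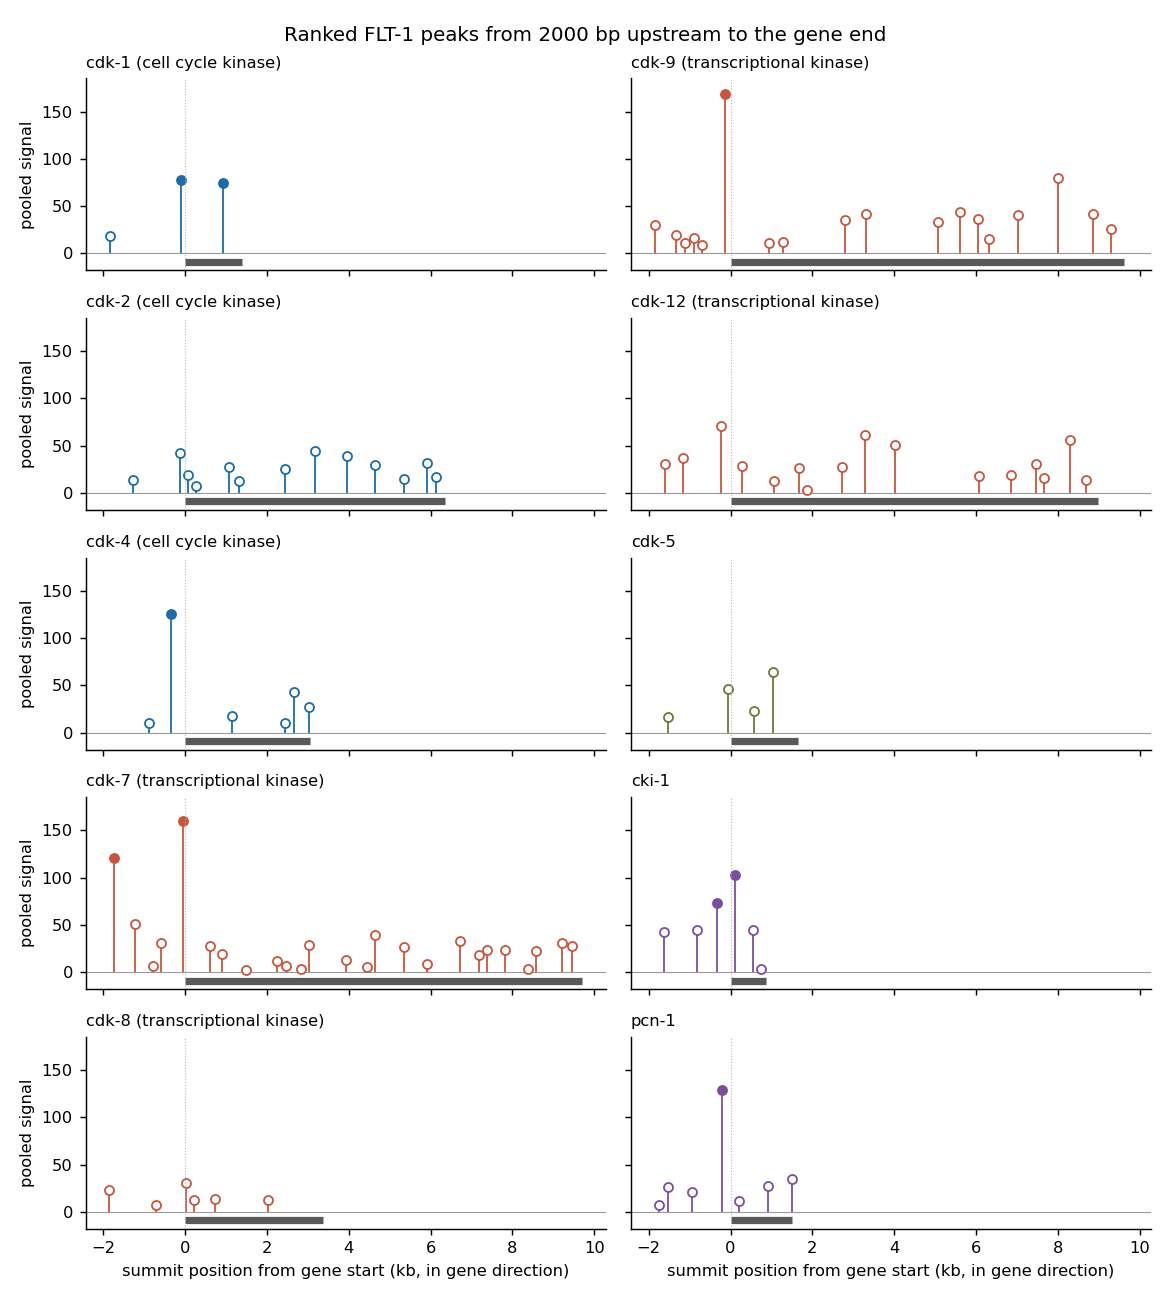
Each panel plots the ranked peaks of 1 gene by the distance of the summit from the gene start (kb, in gene direction) and the pooled signal, with the gene drawn as a grey bar. Filled points are the 9 peaks of the conservative list and open points the 95 ranked peaks below its threshold. The highest point of cdk-4, cdk-7, cdk-9 and pcn-1 is a filled one just upstream of the start, and cdk-2, cdk-5, cdk-8 and cdk-12 have open points alone.

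Of the transcriptional kinases, cdk-9 and cdk-7 had conservative peaks, and cdk-12 and cdk-8 had none. cdk-9 (WBGene00000410, chromosome I, 11323527 to 11333154, plus strand) had the strongest peak of the 10 genes. It lay at -137 bp (11323242 to 11323537) with a pooled signal of 168, rank 494 and an IDR of 0.000181. Its signal was 108 in replicate 1 and 56.9 in replicate 2, or 82.3 ± 35.8 (SD, n = 2). The hexokinase gene hxk-2 starts 280 bp from the summit on the opposite strand, so this promoter too is divergent.

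cdk-7 (WBGene00000408, chromosome I, 2281503 to 2291205, minus strand) had 2 conservative peaks. The stronger one (2291103 to 2291398) was at -46 bp, with a pooled signal of 159.8, rank 533 and an IDR of 0.000224. It had 109.97 in replicate 1 and 51.6 in replicate 2, or 80.8 ± 41.3 (SD, n = 2). From the starts of other annotated cdk-7 transcripts this summit lay at -160 and -1498 bp. The other peak (2292792 to 2293087) lay at -1735 bp with a pooled signal of 121, rank 880 and an IDR of 0.000573. It had 86.3 in replicate 1 and 41.9 in replicate 2, or 64.1 ± 31.4 (SD, n = 2). That second summit was 187 bp from the start of Y39G10AR.11, a gene running the other way, and so lay closer to it than to cdk-7. Counting a peak only for the gene with the nearest start would leave cdk-7 with 1 of its peaks.

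cdk-12 and cdk-8 differed from each other. cdk-12 (WBGene00007135, chromosome III, 4332992 to 4341984, plus strand) had its strongest ranked peak at -233 bp, with a pooled signal of 71.2, rank 3238 and an IDR of 0.0251. It had 49.9 in replicate 1 and 23.4 in replicate 2, or 36.6 ± 18.7 (SD, n = 2), and 15 weaker ranked peaks. cdk-8 (WBGene00000409, chromosome I, 8702466 to 8705825, plus strand) had its strongest ranked peak at +10 bp, with a pooled signal of 30.8 and rank 35656. It had 17.97 in replicate 1 and 16.7 in replicate 2, or 17.3 ± 0.903 (SD, n = 2). For cdk-8 both replicates thus gave low values close to each other, while the cdk-12 peak came nearer to the threshold.

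cdk-5 (WBGene00000407, chromosome III, 13464687 to 13466342, minus strand), a kinase known for its work in neurons, belongs to neither set. It had 4 ranked peaks, and the strongest lay at +1049 bp in an intron, with a pooled signal of 63.8, rank 4599 and an IDR of 0.0308. Replicate 1 gave 30.1 and replicate 2 gave 37.2, or 33.7 ± 5.00 (SD, n = 2). cdk-5 overlaps the gene kel-3, whose intron holds the same summit and whose start is nearer to it, at 473 bp. The peak thus cannot be given to either gene by position.

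**Figure D2:**
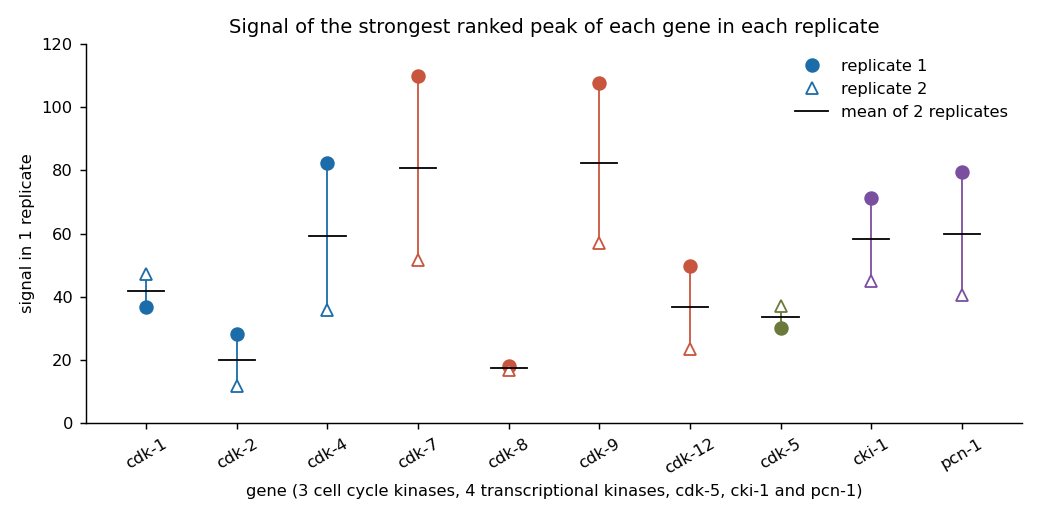
The signal of the strongest ranked peak of each of the 10 genes (vertical axis, authors' units) is plotted for replicate 1 (filled circle) and replicate 2 (open triangle), with a bar at the mean of both. Replicate 1 is higher at 8 genes and replicate 2 at cdk-1 and cdk-5, and the widest gaps are at cdk-7 and cdk-9.

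Cell cycle kinases were set against transcriptional kinases by counts, since 3 and 4 genes chosen with results known carry no test. In the conservative list 2 of 3 cell cycle kinases and 2 of 4 transcriptional kinases had a peak, with 3 peaks in each set, beside 12.4% of all genes. The strongest ranked peaks had pooled signals of 44.3, 77.2 and 125.1 at cdk-2, cdk-1 and cdk-4. At cdk-8, cdk-12, cdk-7 and cdk-9 they were 30.8, 71.2, 159.8 and 168. These ranges overlap, and the median was 77.2 for cell cycle kinases and 115.5 for transcriptional kinases, over 3 and 4 genes. The higher median of the transcriptional kinases came from cdk-7 and cdk-9, while the lowest value of all 10 genes, at cdk-8, was also theirs.

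The windows of both sets differ in length and so in their room for peaks. They ran from 3381 to 8356 bp for cell cycle kinases and from 5360 to 11703 bp for transcriptional kinases. Per kb of window, cell cycle kinases had 1.31 ranked peaks (22 in 16.8 kb) and transcriptional kinases 1.64 (65 in 39.7 kb). For peaks of the conservative list the order turned round, with 0.179 per kb in cell cycle kinases and 0.0756 per kb in transcriptional kinases. Among all protein-coding genes, a conservative peak was found at 8.53% of genes with a window of up to 4000 bp, at 12.8% with one of up to 8000 bp and at 26.6% with a longer one. Of the 10 genes, 3 of 4, 1 of 2 and 2 of 4 in those bins had a peak, so genes with short windows were among those with a peak.

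All 10 genes had at least 1 peak in the ranked list, as did 71.6% of protein-coding genes. They held 104 ranked peaks, counted as listed with overlapping ones separate, and 95 of them were below the threshold. The strongest ranked peak of cdk-9 was above that of 96.0% of the 14303 genes with a ranked peak, and that of cdk-7 above 95.6%. Next came pcn-1 with 93.4%, cdk-4 with 93.2%, cki-1 with 90.5%, cdk-1 with 83.2%, cdk-12 with 79.9% and cdk-5 with 73.8%. cdk-2 at 40.5% and cdk-8 at 12.6% were in the lower part of the distribution, whose median signal was 48.9. The replicate ranges overlapped in every neighbouring pair of this order but cdk-5 (30.1 to 37.2) and cdk-2 (11.8 to 28.3). Such ranges do not pair the genes within a library, and replicate 1 was the higher one at 85.3% of nuclear conservative peaks. Within each replicate, cdk-7 and cdk-9 held ranks 1 and 2 of the 10 genes, and cdk-2 and cdk-8 ranks 9 and 10. The order of the genes between them changed with the replicate. The replicate ranges of cdk-9 and cdk-7 did not reach those of cdk-2 and cdk-8.

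**Figure D3:**
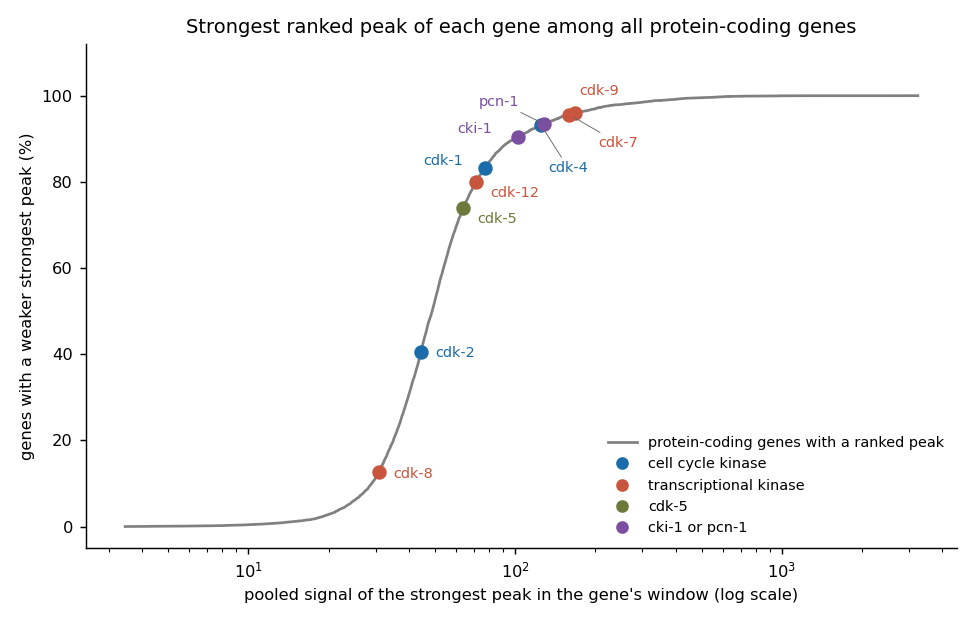
The grey line gives, for the 14303 protein-coding genes with a ranked peak, the percentage of genes (vertical axis) whose strongest peak is weaker than a given pooled signal (horizontal axis, log scale), and the points mark the 10 genes. cdk-9 and cdk-7 are at the top right above 95% of genes, and cdk-2 and cdk-8 lie below the median of 48.9.

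The lists called in each replicate alone divided the 10 genes further. In replicate 1's own thresholded list (1543 peaks) 5 of the 10 genes had a peak, beside 7.85% of all protein-coding genes. They were cdk-4, cdk-7, cdk-9, cki-1 and pcn-1. In replicate 2's own list (1142 peaks) 2 of the 10 had one, cdk-9 and cki-1, beside 6.22% of all. In replicate 1's list the cdk-7 peaks lay at -5 and -1754 bp (ranks 409 and 645), the cdk-9 peak at -137 bp (rank 431) and the cdk-4 peak at -342 bp (rank 704). The pcn-1 peak there lay at -225 bp (rank 759) and the cki-1 peaks at +117 and -240 bp (ranks 916 and 1482). In replicate 2's list the cdk-9 peak lay at -144 bp with a signal of 56.9 (rank 747), and the cki-1 peak at -335 bp with a signal of 48.4 (rank 951). cdk-1 was in neither list, so its 2 conservative peaks rest on the replicates jointly.

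By set, replicate 1's own list held 1 of 3 cell cycle kinases and 2 of 4 transcriptional kinases, beside 7.85% of all genes. Replicate 2's own list held 0 of 3 cell cycle kinases and 1 of 4 transcriptional kinases, beside 6.22% of all genes. These counts differ by 1 gene in each list, and cdk-7, which also activates cell cycle kinases, is 1 of the 2 transcriptional kinases in replicate 1's list. In the conservative list the share was instead higher for the cell cycle kinases, so no order of the sets is read from these counts. In the other thresholded list over both replicates (2849 peaks) the same 9 intervals appeared at the same 6 of 10 genes, beside 13.2% of all protein-coding genes. The ranks of the 9 peaks in that list ran from 492 for cdk-9 to 2384 for the upstream cki-1 peak.

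Within the conservative list the 9 peaks were of ordinary strength. The nuclear peaks of that list had a median pooled signal of 95.8 with quartiles of 78.6 and 140.4. The 9 peaks ran from 72.7 to 168, and the cdk-9 peak was above 81.8% of the nuclear peaks while the upstream cki-1 peak was above 15.3%. Replicate 1 was the higher one at 6 of the 9 peaks, as at 85.3% of nuclear conservative peaks. The other 3, both cdk-1 peaks and the upstream cki-1 peak, were also the 3 weakest. Over all nuclear conservative peaks the median log2 ratio of replicate 1 to replicate 2 was 0.44, and it was 0.92 at cdk-9, 0.97 at pcn-1, 1.09 and 1.04 at cdk-7 and 1.199 at cdk-4.

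**Figure D4:**
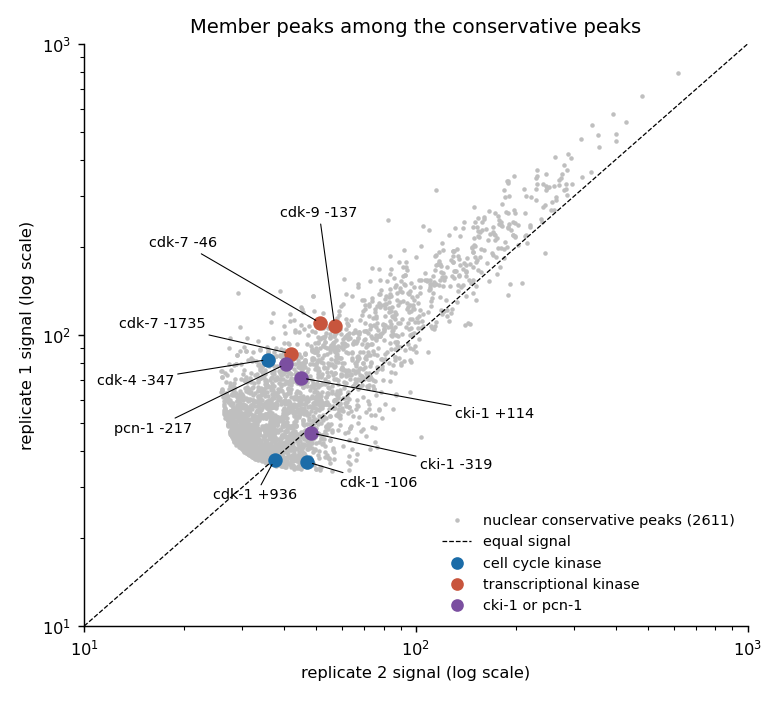
Each grey point is 1 of the 2611 nuclear peaks of the conservative list, by its signal in replicate 2 (horizontal axis, log scale) and in replicate 1 (vertical axis, log scale), and the coloured points are the 9 peaks at the described genes, labelled by distance from the start in bp. The dashed line marks equal signal. The peaks of cdk-4, cdk-7, cdk-9 and pcn-1 and the exon peak of cki-1 lie above it, and both cdk-1 peaks and the upstream cki-1 peak lie on or below it.

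Peaks of like signal fell on both sides of the threshold. Inside it, the lowest -log10 IDR values were 2.79 at the upstream cki-1 peak and 2.201 and 2.13 at the cdk-1 peaks. Outside it, the highest were 1.60 for cdk-12 at -233 bp and 1.51 for cdk-5 at +1049 bp. Next came a peak in a coding exon of cdk-9 at +8008 bp with 1.18. That cdk-9 exon peak had a pooled signal of 80.1, above both cdk-1 peaks, and signals of 49.4 in replicate 1 and 20.3 in replicate 2. The cdk-12 peak had a pooled signal of 71.2, close to the 72.7 of the upstream cki-1 peak. Over all 104 ranked peaks signal and -log10 IDR had a Spearman correlation of 0.71, given as a description, since peaks share libraries and IDR is computed from the signals' ranks. Of the 104 peaks, 34 were at the lowest score of the ranked list, 43.

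**Figure D5:**
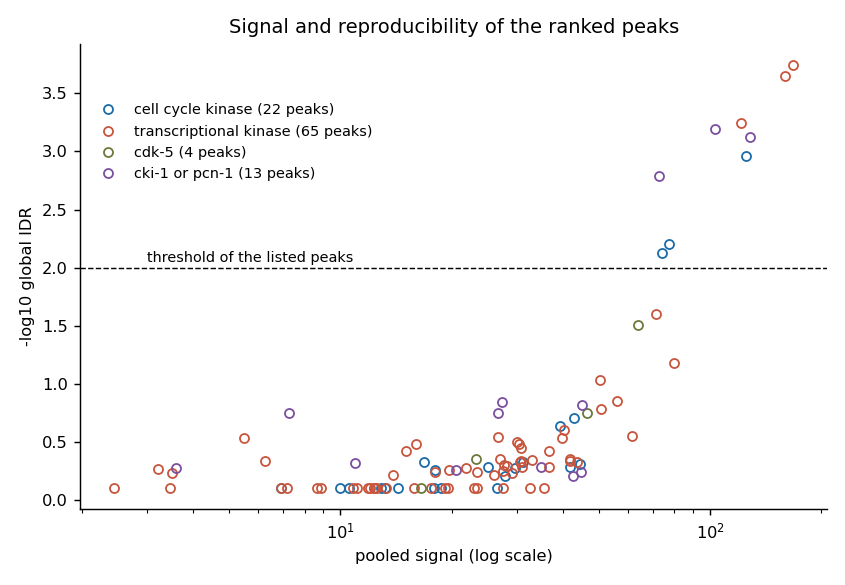
The 104 ranked peaks of the 10 genes are plotted by pooled signal (horizontal axis, log scale) and -log10 global IDR (vertical axis, higher for more reproducible peaks), coloured by set. The 9 peaks above the dashed line at 2.00 have signals of 72.7 or more, and 1 peak with a signal of 80.1, in cdk-9, lies below the line.

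Below the threshold the long transcriptional kinase genes held most of the peaks. cdk-7 had 23 such peaks with signals of 2.45 to 50.5, cdk-9 had 17 of up to 80.1 and cdk-12 had 16 of 3.21 to 71.2. cdk-8 had 6, with signals of 7.17 to 30.8. Of the cell cycle kinases, cdk-2 had 13, cdk-4 had 5 of up to 42.9 and cdk-1 had 1, at 18.1. Overlapping peaks are counted separately here. The 10 windows together had 1.56 ranked peaks per kb. The figure over the genome, 0.961 per kb, includes sequence outside gene windows and so is not a like background. The rate over the windows of all genes was not computed.

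Many of these peaks are shared with neighbours. Of the 9 conservative peaks 6 had their summit in the window of at least 1 other protein-coding gene, against 705 of 2142 nuclear conservative summits in any window (32.9%). The cki-1 and pcn-1 summits were the 3 that did not. The nearest conservative peak outside its own window was 447 bp past the end of cki-1, at +1312 bp with a pooled signal of 109. For cdk-5 it was 1579 bp past the gene end, at +3234 bp with a pooled signal of 192, and for cdk-4 3836 bp past the end with 311. For cdk-8 it was 4015 bp from the window, with a pooled signal of 96.3. For the other 6 genes the gap ran from 7560 bp at cdk-7 to 41306 bp at cdk-9, with 24234 bp at cdk-2. None of the 9 peaks lay within 200 bp of a gene for a tRNA or another small structured RNA, which 15.3% of nuclear conservative peaks did. The nearest was 7217 bp away, a tRNA gene near cdk-4.

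Base composition and motifs were read within 100 bp of each summit. GC content over the 9 peaks ran from 35.8% at cdk-9 to 54.2% at the upstream cki-1 peak, around the median of 46.3% over nuclear conservative peaks. The median between 250 and 50 bp upstream of all protein-coding gene starts was 33.8%, below each of the 9. The CHR element TTTGAA was found at 3 of 9 summits: cdk-1 at -106 bp, cki-1 at +114 bp and pcn-1. It was present in 27.8% of conservative peak windows and 49.6% of promoter windows of the same 201 bp. The E2F variant TTCGCGC was found at pcn-1 alone of the 9, with 2 matches, against 3.75% of peak windows and 1.54% of promoters. This variant was searched after the pcn-1 bases had been seen. The E2F core TTCCCGC was found at 0 of 9, against 4.21% of peak windows and 2.41% of promoters. Likewise 0 of 9 windows held a GAGA repeat GAGAGAG (14.9% of peak windows and 5.07% of promoters), a TATA box TATAAA (11.4% and 25.7%) or the tRNA B box core GGTTCGA (9.57% and 0.851%). All motifs were searched on both strands, and a match is a run of letters and not a measured site.

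Genes that work with these kinases were counted in the same way. Of 7 cell cycle cyclins 2 had a conservative peak (28.6%, beside 12.4% of all genes). Cyclin E, cye-1, the partner of CDK-2, had a pooled signal of 677 at +1015 bp, with 384 in replicate 1 and 279 in replicate 2. Its summit lies within an annotated small RNA gene, so the peak cannot be given to the cyclin by position. Cyclin A, cya-1, had a pooled signal of 204 at -1770 bp, with 134 in replicate 1 and 73.9 in replicate 2. Both were stronger than any peak at the 10 genes. Both were also in each replicate's own list. That of replicate 2 held 0 of 3 cell cycle kinases, which is near the share of all genes in it, 6.22%.

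Of 8 genes for cyclins and other partners of the transcriptional kinases 0 had a peak in the conservative list (beside 12.4% of all genes), the other list (13.2%) or the own list of replicate 1 (7.85%) or replicate 2 (6.22%). At these shares, a count of 0 among 8 genes is near the background. Their strongest ranked peaks had pooled signals of 30.7 to 64.0 at the 7 genes that had one. Of 17 other regulators of the cell cycle kinases 3 had a conservative peak (17.6%, beside 12.4% of all genes). They were lin-35, the Rb homologue, at -180 bp with a pooled signal of 149, cdc-25.2 with 136 and fzr-1 with 119. The cdc-25.2 summit is 17587 bp into the gene and 1048 bp from the start of F16B4.7, and the fzr-1 summit is 514 bp from the start of sqv-8, which is nearer.

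Of 28 replication genes, among which pcn-1 itself is not counted, 7 had a conservative peak (25.0%, beside 12.4% of all genes). The strongest were at the clamp loader gene rfc-4 with a pooled signal of 202 at -153 bp, rpa-2, for a single-strand binding subunit, with 145 at -653 bp, and pole-1, for DNA polymerase epsilon, with 143 at -171 bp. The rfc-4 summit lies 15 bp from a microRNA gene. The orc-2, rfc-1 and cdc-6 summits, also among the 7, lie nearer to the starts of cyn-4 (123 bp), pmp-3 (324 bp) and acin-1 (77 bp). In the other thresholded list over both replicates 5 of the 28 had a peak, beside 13.2% of all genes. In each replicate's own list 3 of the 28 had a peak, near the shares of all genes, 7.85% for replicate 1 and 6.22% for replicate 2. Of 4 further kinases of the family, pct-1 had a pooled signal of 138 at +7042 bp and cdk-11.2 had 75.3 at -142 bp. In all 14 of these 64 genes had a conservative peak, beside 12.4% of all genes, and the lists were drawn up with earlier results of these data known.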

How the data were processed

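The authors deposited peak lists from ChIP-seq of tagged FLT-1 in 2 biological replicates of 1 group. The aligner, peak caller, versions and read numbers were not given in the sources used here. Depth is thus unknown, and the 2 replicates are the only measure of error. The age label is 1 hour and the stage label mid-embryo. The coordinates are in ce11, per the labels. Descriptions deposited with the files name a control file and filtered alignments as the input of the peaks, and for thresholded lists 1 more file that is not described.

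The deposited signal is the authors' own value per peak, over pooled replicates or in 1 replicate. The authors' score is an IDR score of up to 1000, with a minimum of 830 in thresholded lists. The deposited -log10 of the global IDR was 2.00 or more for every peak of the conservative list. The ranked list holds 2817 peaks at that level and the conservative list 2633. Its replicate signals equalled those of the replicates' own ranked lists at 74913 of 74914 and 41210 of 41210 shared intervals.

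Summits were placed in windows of Ensembl 115 genes on WBcel235, with 1-based coordinates, and sequence came from RefSeq WBcel235. The software was SciPy 1.17.1, pandas 2.3.3, NumPy 2.4.6 and matplotlib 3.10.9 under Python 3.11.15. The assignment of summits to windows was tested on simulated data. No test was run: the genes, their sets and the pathway lists were chosen with earlier results of these data known. All 10 genes are named, with up to 3 genes of the highest signal per pathway list and replication genes whose summit lay nearer another start. Neighbours are named where their start is nearer or their window holds the summit. Alternatives changed the list, the replicate, the IDR, the window and the handling of shared peaks.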

Additional observations from a re-analysis of the deposited data

How the results depend on the processing

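The count of 6 of the 10 genes with a conservative peak held in the other thresholded list and under every window and every placement of peaks tried, with the same 6 genes. The replicates' own lists, with an IDR taken within 1 replicate, gave 2 to 5 genes, beside 6.22% to 7.85% of all protein-coding genes. At an IDR of 0.001 or less 4 genes had a peak (cdk-7, cdk-9, cki-1 and pcn-1), beside 6.19% of all genes. At 0.05 or less 8 had one, with cdk-5 and cdk-12 added, beside 20.8% of all genes. For the cell cycle kinases the count of 2 became 0 at an IDR of 0.001 or less, and 0 to 1 in the replicates' own lists. The cdk-4 peak, at an IDR of 0.0011, missed the stricter cut narrowly. At these shares of all genes, a count of 0 among 3 genes is near the background. For the transcriptional kinases the count of 2 became 1 to 2 in the replicates' own lists and 1 with cdk-7 left out. Counted with the cell cycle kinases, cdk-7 made their count 3.

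The 2467 protein-coding genes became 1242 to 1568 in the replicates' own lists, 1236 at an IDR of 0.001 or less and 4163 at 0.05 or less. They became 1363 from 1000 bp upstream to 200 bp downstream of the start, and 1632 when a peak counted for the nearest start alone. The 14 pathway genes became 6 to 9 in the replicates' own lists, 9 at an IDR of 0.001 or less, 24 at 0.05 or less and 9 in the promoter span. A stricter or looser IDR, the narrower span and the nearest start alone keep fewer or more peaks by construction, and for the replicates' own lists the cause was not tested. The strongest ranked peak was the same peak in the other ranked list at 10 of 10 genes. No paired analysis between groups was possible because there is 1 group.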
